A study of Mus musculus with 8 samples.

Results

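The transcripts of 9 cytosolic heat shock proteins were followed on polysomes of the mouse main olfactory epithelium. They were Hsp90aa1, Hsp90ab1, Hspa8, Hspa1a, Hspa1b, Hsph1, Dnajb1, Dnaja1 and Hspb1, chosen by symbol from the 21765 gene rows of the deposited expression table. Each symbol matched 1 row, and all 9 had a mean above the minimum of 1 TPM (transcripts per 1000000) needed for testing, as did 16097 genes in all. The results below concern where these messages sat on the polysome gradient and whether loss of Mex3a, which encodes an RNA-binding protein, moved them. On average 8 of the 9 passed the test as higher in heavy than in light polysomes, as did 34.3% of all genes tested, and Dnajb1 did not pass. Between genotypes none of the 9 passed, and no more than 0.0435% of all genes did in any of the 4 genotype comparisons.

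Cytosolic heat shock proteins are molecular chaperones, which bind unfolded or partly folded proteins and help them reach or regain their shape. Hsp70 proteins bind short hydrophobic stretches of a client in a cycle driven by ATP, in which J-domain proteins deliver the client and stimulate ATP hydrolysis, and Hsp110 proteins release the nucleotide. Hsp90 acts later, on nearly folded clients such as kinases and steroid receptors, while small heat shock proteins hold unfolding proteins in soluble assemblies without ATP. Some members are made at all times (Hspa8, Hsp90ab1), and others (Hspa1a, Hspa1b) are the classical genes switched on by heat shock factor 1. Ribosomes are spaced along a message, so a message with a longer reading frame or denser ribosomes travels further into a sucrose gradient.

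The groups were WT early, WT late, cKO early and cKO late, with 2 libraries each. WT mice were Mex3a flox/flox or flox/+ and had no Cre, whereas conditional knockouts (cKO) were Mex3a flox/flox with Cre. The Cre line is not reported here, and the labels give no age. All tissue was exposed to cycloheximide at 100 µg/mL when dissected, which holds ribosomes on their messages. Of about 42 gradient fractions of 350 µL, 50 µL of each of fractions 27 to 34 was pooled as early (lighter) polysomes and of fractions 35 to 42 as late (heavier) polysomes. The early and late library of a number come from the same lysate by their library names, so there were 2 WT and 2 cKO lysates. Nothing says whether a lysate came from 1 animal or several, and p-values measure only the spread between these libraries. For the second WT early library the genotype label says cKO while the title says WT. The title was followed, and results are also given without that library.

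The targeted gene was read first, as a check of the labels. Mex3a gave 97.4 and 116 TPM early and 93.2 and 95.6 TPM late in the WT lysates. The cKO lysates gave 13.9 and 19.8 TPM early and 11.1 and 13.8 TPM late. The library with the conflicting tag was the one at 116 TPM. It lay above the other WT libraries (93.2 to 97.4 TPM) and far above the cKO libraries (11.1 to 19.8 TPM). The tissue's defining markers were present: the summed TPM of 7 mature olfactory sensory neuron markers was 6567 to 10451 over the 8 libraries, and that of 5 sustentacular (supporting) cell markers was 2476 to 10783. Reads inferred from the steps of the TPM values summed to between 7776792 (second cKO late library) and 12771079 (second WT late library).

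Positions are those of GENCODE M21 on GRCm38. The Hsp90 genes are Hsp90aa1 (chromosome 12, 110690605 to 110702728, minus strand) and Hsp90ab1 (chromosome 17, 45567775 to 45573271, minus strand), each with 11 exons in the transcript with the longest coding sequence. Of the Hsp70 genes, Hspa8 lies on chromosome 9 at 40800984 to 40810087 (plus strand, 9 exons). Hspa1a (34969190 to 34972156) and Hspa1b (34956436 to 34959238) are neighbours on the minus strand of chromosome 17, and each is a single exon. Hsph1, the Hsp110 gene, lies on chromosome 5 at 149614287 to 149636376 (minus strand, 19 exons). The J-domain genes are Dnajb1 (chromosome 8, 83608193 to 83612653, plus strand, 3 exons) and Dnaja1 (chromosome 4, 40722150 to 40737149, plus strand, 9 exons). Hspb1, which encodes the small heat shock protein Hsp25 (Hsp27 in humans), lies on chromosome 5 at 135887919 to 135889563 (plus strand, 3 exons).

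Hspa1a and Hspa1b encode nearly the same protein, and how their reads were divided limits both rows. Their coding sequences of 1923 and 1926 nucleotides differ at 8 of 1923 aligned bases (99.6% identical) beside 3 gap bases. The 30 coding bases below, at coding positions 1877 to 1906 of Hspa1a and 1880 to 1909 of Hspa1b, hold 2 of those bases, in capitals, and show how little separates the copies. They lie at chr17:34970020-34970049 and chr17:34957099-34957128 of GRCm38 and are read on the minus strand, 5′ to 3′.
Hspa1a: cgccCaaGggagcctctggctcaggaccca
Hspa1b: cgccGaaAggagcctctggctcaggaccca
Of all stretches of 50 bases in the Hspa1a transcript, 60.3% also occur in another gene's transcript, and in Hspa1b 62.3% do. Such sharing was also high for Hspa8 (73.2%, mostly with Gm15459), Hsp90aa1 (65.6%, mostly with Gm12346) and Hspb1 (58.9%, all with Hsp25-ps1). It was 30.6% for Dnaja1, 4.49% for Hsp90ab1, 0.407% for Dnajb1 and 0% for Hsph1. How the authors assigned reads that match several genes is not given in the sources used here, so levels of the genes with high sharing are uncertain.

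The promoters are shown because heat shock factor 1 binds repeats of GAA and TTC, and several members are known to be induced together. RefSeq promoter windows (GRCm38.p6, 250 bases before to 50 after a start) were matched for 6 members: Dnaja1, Dnajb1, Hspa1a, Hspa1b, Hspb1 and Hsph1. The pair GAANNTTC, which reads the same on both strands, occurred in windows of 5 of these 6 genes, against 9.04% of all 27025 genes with a window. The 5 are not independent, since Hspa1a and Hspa1b have nearly the same promoter. In Hsph1 the pair lay after the start, at 41 or 20 bases depending on the window. The reverse order TTCNNGAA occurred in 1 of the 6 (Hsph1), against 9.6% of all genes, and the triplet GAANNTTCNNGAA, which contains both, also in Hsph1 only, against 0.662%. Counted by window, GAANNTTC was in 6 of the members' 10 windows and in 7.86% of all 32851. The windows of Dnajb1 held none of these letters. In the stretches below GAANNTTC is in capitals: chr17:34972242-34972271 and chr17:34959324-34959353 (minus strand, both -115 to -86 from the start) and chr5:135887800-135887829 (plus strand, -119 to -90).
Hspa1a: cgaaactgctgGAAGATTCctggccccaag
Hspa1b: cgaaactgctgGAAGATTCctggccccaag
Hspb1: gaGAAGTTTCcagatgggggcaGAACCTTC
The 2 Hspa1 stretches are identical, and over the 250 bases before their starts the genes differ at 3 bases. A match describes letters only, and no binding was measured here.

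Levels spanned more than 3 orders of magnitude between members, compared in TPM, which is per transcript length. Hsp90ab1 was the highest at 1427 to 3648 TPM, ranking 12 to 51 among all genes of a library. Hspa8 followed at 519 to 1518 TPM and Hsp90aa1 at 211 to 817 TPM. These 3 genes made up 94.2% to 95.4% of the summed TPM of the 9 members in every library. Hsph1 (33.8 to 96.6 TPM), Hspb1 (32.5 to 103 TPM), Dnaja1 (30.1 to 59.4 TPM) and Dnajb1 (30.9 to 37.1 TPM) had ranges over all 8 libraries that overlapped. Within each early library Hsph1 was the highest of these genes, by little in the second cKO one (33.8 TPM against 33.3 for Dnajb1). The order of Hspb1, Dnaja1 and Dnajb1 in the early libraries is not separated by the spread. In the late libraries Dnajb1 (30.9 to 33.9 TPM) lay below Dnaja1 (47.3 to 59.4 TPM), and both lay below Hsph1 and Hspb1 (75.5 to 103 TPM). The inducible copies were lowest, with Hspa1b at 1.62 to 4.71 TPM and Hspa1a at 0.489 to 2.39 TPM, and their ranges also overlapped. The members' summed TPM was 0.229% to 0.308% of the table in early libraries and 0.545% to 0.627% in late libraries, with no overlap.

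**Figure D1:**
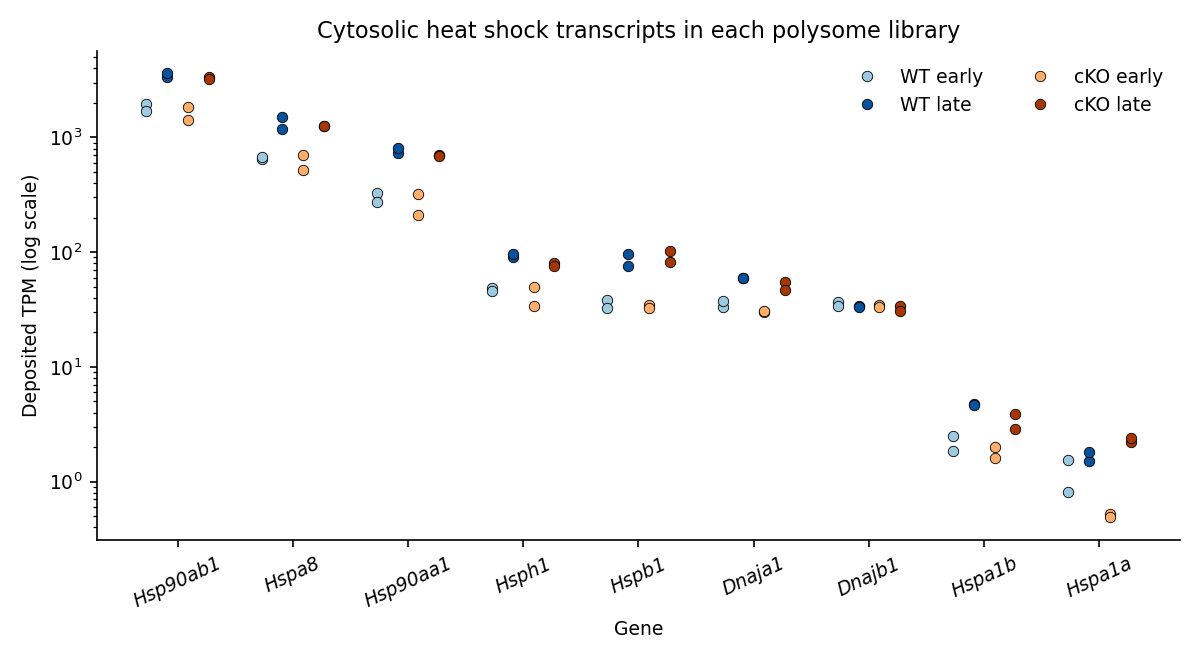
Deposited TPM (log scale) of each heat shock gene in the 8 libraries, 2 points per group. For 7 of the 9 genes every late point lies above every early point; Dnajb1 is nearly level, and in Hspa1a the lower WT late point (1.52 TPM) lies just under the higher WT early point (1.55 TPM).

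Late was compared with early polysomes to see where each message sat on the gradient. The change is the difference of log2(scaled TPM + 1), averaged over genotypes, from limma with Benjamini-Hochberg adjustment over 16097 genes. Of the 9 members 8 passed an adjusted p of 0.05 and all 8 were higher in late polysomes. Over all genes tested, 68.9% passed, 34.3% higher and 34.6% lower. In 7 members every late library was above every early one, as in 31.5% of all genes tested. In Dnajb1 every late library was below every early one after scaling, as in 30.9%. The members' median change was 0.83 log2, against -0.01 over all genes tested. Because each library sums to the same total, a change is one of share within a polysome pool and not of the number of molecules.

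Hsp90aa1 is the Hsp90 gene that stress raises most. It gave 329 and 275 TPM early and 737 and 817 TPM late in the WT lysates, and 323 and 211 TPM early and 707 and 692 TPM late in the cKO lysates. Every late library was far above every early one. Its change of 1.28 log2 (SE 0.13, 95% interval 0.98 to 1.57, adjusted p = 5.91e-05 by limma) was not separated from that of Hspb1 (1.22 log2), and without the second cKO early library it was 1.13, against 1.20 for Hspb1. Hsp90ab1, the constitutive partner, gave 1949 and 1694 TPM early and 3380 and 3648 TPM late in the WT lysates, and 1860 and 1427 TPM early and 3356 and 3245 TPM late in the cKO lysates. Late libraries were again all above early ones, and it rose by 0.87 log2 (SE 0.13, 95% interval 0.58 to 1.16, adjusted p = 0.000363 by limma).

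The balance of the 2 Hsp90 genes was read as a ratio within each library. The ratio of Hsp90aa1 to Hsp90ab1 in TPM ran over 0.169, 0.162, 0.173 and 0.148 in the early libraries and over 0.218, 0.224, 0.211 and 0.213 in the late ones. Every late ratio was above every early ratio. The mean log2 ratio was -2.62 ± 0.10 in early and -2.21 ± 0.04 in late libraries (SD, n = 4 each), a difference of 0.41. An exact two-sided permutation test gave p = 0.0286, the smallest that 4 against 4 allows. After adjustment over the 6 ratio comparisons made it was 0.0857. The adjusted value could fall under 0.05 only if most of the 6 comparisons gave that smallest p. Missing 0.05 therefore says nothing about this ratio. These ratios were chosen after the values were seen, and the early and late library of a lysate are not independent.

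Among the Hsp70 genes, Hspa8 encodes the constitutive Hsc70. It gave 644 and 677 TPM early and 1188 and 1518 TPM late in the WT lysates, and 698 and 519 TPM early and 1261 and 1250 TPM late in the cKO lysates. No late library overlapped an early one, and it rose by 0.92 log2 (SE 0.12, 95% interval 0.65 to 1.20, adjusted p = 0.000198 by limma). Hspa1b, an inducible copy, gave 2.5 and 1.85 TPM early and 4.71 and 4.65 TPM late in the WT lysates, and 2.02 and 1.62 TPM early and 3.89 and 2.90 TPM late in the cKO lysates. The late values were all higher, on 20 to 57 inferred reads per library, and it rose by 0.65 log2 (SE 0.16, adjusted p = 0.0057 by limma).

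Hspa1a, the other inducible copy, had the lowest values of the 9. It gave 1.55 and 0.818 TPM early and 1.52 and 1.80 TPM late in the WT lysates, and 0.526 and 0.489 TPM early and 2.24 and 2.39 TPM late in the cKO lysates. Early and late overlapped in WT and did not in cKO. The inferred reads behind these values were 21 and 11 early and 18 and 22 late in the WT lysates, and 7 and 6 early and 23 and 18 late in the cKO lysates. The exact Poisson intervals, which cover counting error only, run from 2.20 to 13.1 reads for the lowest library and from 14.6 to 34.5 for the highest. It rose on average by 0.66 log2 (SE 0.19, adjusted p = 0.0128 by limma). On this scale the added 1 TPM understates the change of so low a gene: late over early in scaled TPM was 0.92 and 2.02 in the WT lysates and 4.03 and 4.34 in the cKO lysates.

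Since reads may be shared between the copies, Hspa1a and Hspa1b were also summed into 1 row. The sum gave 4.04 and 2.67 TPM early and 6.23 and 6.45 TPM late in the WT lysates, and 2.55 and 2.11 TPM early and 6.13 and 5.29 TPM late in the cKO lysates. All late sums were above all early sums, and the sum rose by 0.80 log2 (SE 0.15, adjusted p = 0.00144 by limma). The log2 ratio of the sum to Hspa8, the constitutive gene, was -7.84 ± 0.35 in early and -7.76 ± 0.15 in late libraries (SD, n = 4 each). They differed by 0.08, less than the spread between libraries (exact permutation p = 0.714).

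Hsph1 encodes Hsp110, a nucleotide exchange factor of Hsp70. It gave 49.1 and 45.7 TPM early and 90.8 and 96.6 TPM late in the WT lysates, and 49.3 and 33.8 TPM early and 81.0 and 75.5 TPM late in the cKO lysates. Late libraries were clearly separated from early ones, and it rose by 0.83 log2 (SE 0.11, 95% interval 0.58 to 1.08, adjusted p = 0.000216 by limma). With no exact 50-base stretch shared with another gene's annotated transcript, this row is the least open to the doubt about shared reads. Near-identical stretches and other transcripts of Hsph1 were not checked.

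The J-domain members parted. Dnaja1, a farnesylated partner of Hsc70, gave 33.1 and 37.2 TPM early and 59.1 and 59.4 TPM late in the WT lysates, and 30.1 and 30.7 TPM early and 55.2 and 47.3 TPM late in the cKO lysates. It rose by 0.62 log2 (SE 0.08, 95% interval 0.43 to 0.81, adjusted p = 0.000243 by limma), with late above early throughout. Dnajb1, the Hsp40 that works with Hsp70 in protein disaggregation, gave 37.1 and 33.8 TPM early and 33.9 and 33.5 TPM late in the WT lysates, and 34.9 and 33.3 TPM early and 33.8 and 30.9 TPM late in the cKO lysates. These values overlapped, while after scaling they were 34.4 to 37.2 TPM early and 29.3 to 33.2 TPM late, with no overlap. Its change of -0.18 log2 (SE 0.07, 95% interval -0.35 to -0.02) missed the threshold at adjusted p = 0.0507 by limma. That call turned on the processing: adjusted p was 0.0439 with a minimum mean of 5 TPM, 0.0306 after quantile normalization, 0.031 without the first cKO late library and 0.41 with TPM as deposited, where the change was -0.07 log2. The interval excludes a rise of the size seen in Dnaja1.

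The 2 J-domain messages were set against each other in the same way. Early libraries had 1.12, 0.908, 1.16 and 1.09 times as many TPM of Dnajb1 as of Dnaja1, and late libraries 0.574, 0.565, 0.612 and 0.653 times as many, so that no late ratio reached an early one. The mean log2 ratio was 0.09 ± 0.16 in early and -0.74 ± 0.10 in late libraries (SD, n = 4 each), a difference of -0.83 (exact permutation p = 0.0286, the smallest possible, and 0.0857 adjusted over 6 comparisons). As for the Hsp90 ratio, an adjusted value under 0.05 was out of reach unless most of the 6 comparisons gave that smallest p. Dnajb1 was the higher of the pair in 3 of 4 early libraries and in 0 of 4 late ones. The permutation test treated all libraries as independent, which the early and late library of a lysate are not. This ratio too was chosen after the values were seen.

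Hspb1, the small heat shock protein, gave 38.6 and 32.5 TPM early and 76.5 and 96.4 TPM late in the WT lysates, and 34.9 and 32.8 TPM early and 81.4 and 103 TPM late in the cKO lysates. The lowest late library was well above the highest early one, on 130 to 380 inferred reads per library. It rose by 1.22 log2 (SE 0.10, 95% interval 0.98 to 1.45, adjusted p = 2.91e-05 by limma).

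**Figure D2:**
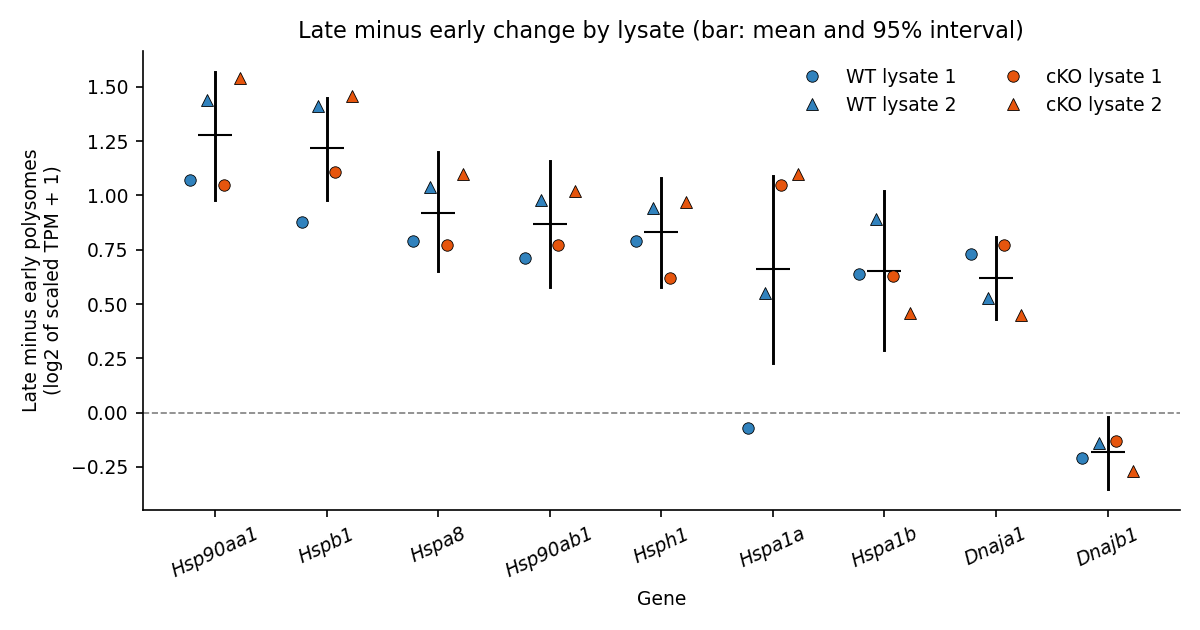
Late minus early change (log2 of scaled TPM + 1) of each member in the 4 lysates (blue WT, orange cKO; circles lysate 1, triangles lysate 2), with the average (dash) and its 95% interval (vertical line). All lysates lie above 0 for 7 members and below 0 for Dnajb1, and in Hspa1a WT lysate 1 (-0.07) stands apart from the other 3.

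Within each genotype the picture was close to the average. In WT, 7 of 9 members were higher in late polysomes (54.8% of all genes passed, 27.1% higher), the exceptions being Hspa1a at 0.24 log2 (SE 0.26, adjusted p = 0.469) and Dnajb1 at -0.17 (SE 0.10, adjusted p = 0.191). Without the library with the conflicting tag 6 passed in WT, as Hspa1b went from 0.76 (adjusted p = 0.0194) to 0.62 log2 (adjusted p = 0.114). Leaving out the first or second WT late library also ended the WT call of Hspa1b, at adjusted p = 0.0785 and 0.0742. In cKO, 7 of 9 were higher (58.1% of all genes passed, 28.9% higher), without Hspa1b at 0.55 log2 (SE 0.22, adjusted p = 0.0639) and Dnajb1 at -0.20 (SE 0.10, adjusted p = 0.134). Hspa1b did pass in cKO with TPM as deposited (adjusted p = 0.0374), after quantile normalization (0.0235), with no trend of variance on mean (0.0267) and without the second cKO late library (0.0475). The summed Hspa1a and Hspa1b row passed in both, at 0.68 log2 in WT (adjusted p = 0.0241) and 0.92 in cKO (adjusted p = 0.00594). On average over genotypes 8 of 9 passed with the tagged library left out as well, and the members' median was then 0.81 log2.

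Replicate lysates differed in the size of the change. The late minus early value, counted with its sign, was higher in lysate 2 than in lysate 1 for 8 of 9 members in WT (50.3% of all genes) and for 6 of 9 in cKO (51.9% of all genes). Dnajb1, which was below 0 in all lysates, gave -0.21 and -0.14 in WT and -0.13 and -0.27 in cKO. For Hsp90aa1 the change in lysates 1 and 2 was 1.07 and 1.44 log2 with WT and 1.05 and 1.54 with cKO tissue. For Hspb1 the WT lysates gave 0.88 and 1.41 and the cKO lysates 1.11 and 1.46. Dnaja1 was lower in lysate 2, as its WT lysates gave 0.73 and 0.53 and its cKO lysates 0.77 and 0.45. The spread of the change over all genes was also wider in the second lysates, with an SD of 0.78 against 0.62 log2 in WT and 0.90 against 0.67 in cKO. Whether that wider spread had a part in the members' values was not tested.

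Position on the gradient was then set beside coding length, since a longer reading frame holds more ribosomes. Over 14687 genes the change rose with the length of the longest coding sequence (Spearman's rho = 0.633 across genes, which are not independent replicates). Each member was compared with the other genes whose coding length was within 10% of its own. Hspb1, with 627 nucleotides, was 1.91 log2 above the median of its 836 neighbours in length (-0.70), and 1 of them was higher. Hsp90aa1, with 2199 nucleotides, was 0.90 above its neighbours' median of 0.37, and 14 of 1299 were higher. These are descriptions of rank and carry no test.

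The other members lay nearer to genes of their length. Dnaja1, with 1191 nucleotides, was 0.65 above its neighbours' median of -0.03. Hspa8 was 0.60 above, Hsp90ab1 0.50, Hsph1 0.42 and both Hspa1a and Hspa1b 0.33 above genes of like length. The last 2 values hold only for the scale with 1 TPM added, since with a pseudocount of 0.1 the change itself was 1.15 for Hspa1a and 0.86 for Hspa1b. Dnajb1, with 1020 nucleotides, was at -0.18 against a median of -0.17 for 2284 genes of its length, a difference of -0.01. Dnajb1 thus lay at the middle of the genes of its coding length.

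**Figure D3:**
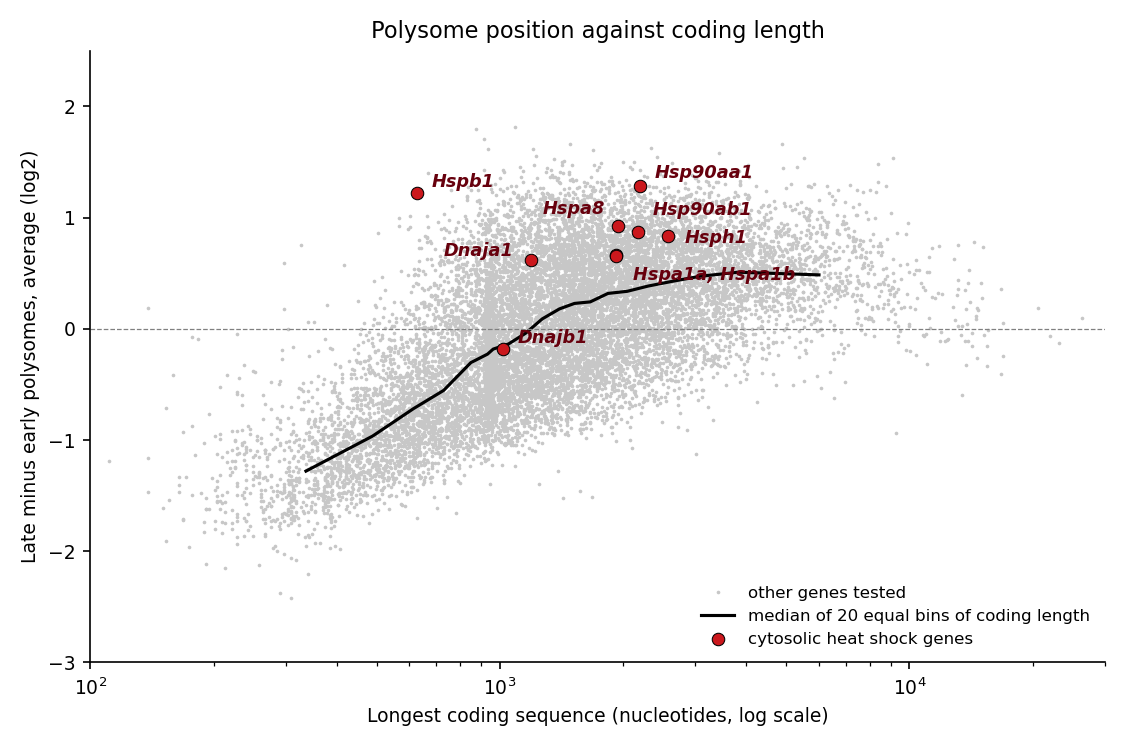
Average late minus early change (log2) against the longest coding sequence (nucleotides, log scale) for the genes tested (grey), with the median in 20 equal bins (black line) and the 9 members (red). Hspb1 (627 nucleotides, 1.22 log2) lies far above the line, Hsp90aa1 (1.28 log2) lies near the upper edge, and Dnajb1 (-0.18 log2) lies on the line.

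The genotype comparison asked whether losing Mex3a changed the members on polysomes. In early polysomes 0 of 9 passed by limma (0.0435% of all genes passed), and 0 had an unadjusted p under 0.05 (6.65% of all genes). In late polysomes 0 of 9 passed (0.0124% of all genes), and 0 had an unadjusted p under 0.05 (9.36%). On the mean of each lysate's early and late values 0 of 9 passed (0.00621%), and 0 had an unadjusted p under 0.05 (11.3%). For the difference between genotypes in the late minus early change, 0 passed (0.00621%) and 0 had an unadjusted p under 0.05 (2.85%). These counts of unadjusted p are those of the main fit, and for Hspa1a some other fits fell under 0.05, as given below. On inferred reads with voom 0 of 9 passed in each of these comparisons, and 0 passed without the library with the conflicting tag or, on lysate means, without its lysate. In bulk tissue, fewer cells of a type and less RNA per cell cannot be told apart.

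The intervals say how large a change the 2 libraries per group could hide. For Hsp90ab1, cKO minus WT was -0.10 log2 in early (95% interval -0.51 to 0.31) and -0.05 in late polysomes (-0.46 to 0.36). For Hspa8 it was -0.08 in early (-0.47 to 0.31) and -0.06 in late polysomes (-0.45 to 0.33). Hsp90aa1 stood at -0.15 in early (-0.57 to 0.27) and -0.11 in late polysomes (-0.53 to 0.31). Each of these estimates was smaller than its standard error, the largest being -0.15 (SE 0.18) for Hsp90aa1 in early polysomes. As all were below 0, the intervals reach further below 0 than above it. The narrowest interval was that of Dnajb1, at -0.24 to 0.24 in early and -0.26 to 0.22 in late polysomes.

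Of the remaining members, Hsph1 was at -0.15 log2 (cKO minus WT) in early (95% interval -0.51 to 0.20) and -0.22 in late polysomes (-0.58 to 0.14). Dnaja1 was at -0.15 (-0.42 to 0.12) and -0.17 (-0.44 to 0.10). Hspb1 was at -0.01 (-0.34 to 0.32) and 0.13 (-0.20 to 0.46), and Hspa1b at -0.13 (-0.64 to 0.38) and -0.34 (-0.86 to 0.17). None of these differences exceeded the spread between libraries by the test.

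Hspa1a had the fewest reads and the widest intervals between genotypes. It was at -0.50 log2 in early (95% interval -1.10 to 0.11) and 0.34 in late polysomes (-0.27 to 0.94). The early value was -0.97 with a pseudocount of 0.1, -1.04 with voom, -0.26 without the first WT early library and -0.74 without the second, which carries the conflicting tag. By limma the unadjusted p of the early value was 0.096 in the main fit and 0.0693 with a pseudocount of 0.1. It was 0.0386 with no filter on low values and 0.0204 with no trend, also by limma. With voom it was 0.0679, and after adjustment the early value passed in no fit. The late minus early change was 0.84 log2 larger in cKO than in WT (SE 0.37, interval -0.02 to 1.69, unadjusted p = 0.055, adjusted p = 1.0 by limma). Over the alternatives this value ranged from 0.60 to 1.55 log2 and its adjusted p from 0.688 to 1.0. Its unadjusted p was 0.0331 with voom, and by limma 0.0195 with no filter on low values and 0.00952 with no trend. By limma it was also 0.0556 with a pseudocount of 0.1 and 0.0554 with 0.5. With TPM as deposited it was 0.0587, after quantile normalization 0.0569 and with the lysate block 0.0821, all by limma. Without the library with the conflicting tag the difference was 1.07 log2, and without the first WT early library it was 0.60. For Hspa1b, the near-identical copy, the same difference was -0.21 log2 (interval -0.94 to 0.51), and for the sum of the copies it was 0.24 (SE 0.30, adjusted p = 1.0).

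**Figure D4:**
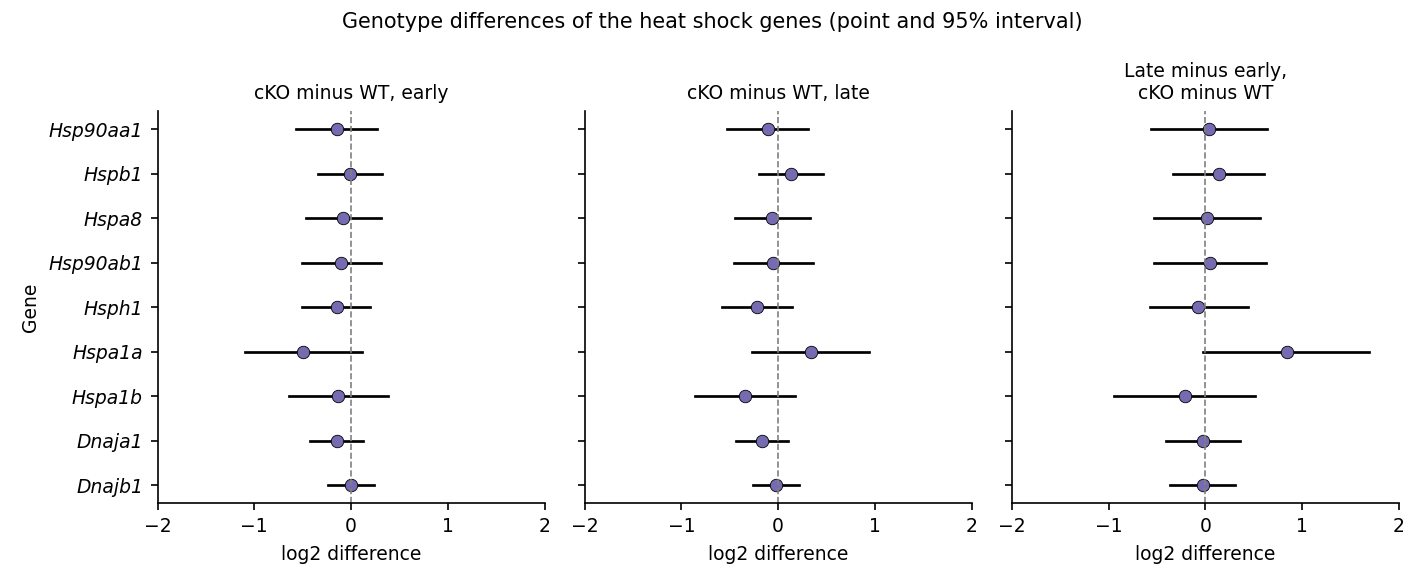
Differences between genotypes (log2, point and 95% interval) for each member in early polysomes, in late polysomes and in the late minus early change. Every interval spans 0; that of Hspa1a in the right panel (-0.02 to 1.69) comes closest to excluding it.

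Partners of the members were read from lists of chaperone genes. Of the other cytosolic Hsp70 genes, 5 of 6 tested were higher in late polysomes and 0 lower (34.3% and 34.6% of all genes). Among them Hspa2 rose by 1.13 log2 (24.4 to 36.2 TPM early, 69.6 to 76.6 late), Hspa4l by 0.99 and Hspa4, an Hsp110 relative of Hsph1, by 0.94. Of the other J-domain genes 3 of 15 were higher and 9 lower. Dnajc7 was 0.85 log2 higher in late polysomes, while Dnajc8 was at -0.84 and Dnajc9, a histone chaperone, at -0.83.

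The other small heat shock genes mostly lay on the far side from Hspb1. Of 6 tested, 5 were lower in late polysomes and 1 was higher on average over genotypes (34.6% and 34.3% of all genes), with a median of -0.84 log2. Within WT 4 were lower and 0 higher (54.8% of all genes passed), and within cKO 2 were lower and 0 higher (58.1% passed). Cryaa (mean 1.59 TPM) and Hspb7 (1.92 TPM), both among the lower, lay near the minimum of 1 TPM. Hspb6 was at -1.66 (33.5 to 42.1 TPM early, 9.48 to 15 late), Hspb2 at -0.96 and Cryab, which encodes alphaB-crystallin, at -0.86. Their coding sequences run from 486 to 606 nucleotides, close to the 627 of Hspb1. Hspb2 rested on as few as 3 inferred reads in a library, and its call was lost without the second cKO early library (-0.91, adjusted p = 0.0532 by limma) or the first cKO late library (-0.81, adjusted p = 0.0615).

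Of 19 Hsp90 co-chaperone genes 9 were higher and 6 lower in late polysomes, beside 34.3% and 34.6% of all genes. Stip1, which bridges Hsp70 and Hsp90, rose by 1.20 log2 (85.8 to 109 TPM early, 232 to 271 late), while Cdc37l1 was at -1.02 and Stub1, the ubiquitin ligase CHIP, at -0.99. Of 8 nucleotide exchange and Hsp70-binding factors 4 were higher, led by Bag6 at 1.15, and 3 lower, led by Bag2 and Bag1, both at -1.01. Of the heat shock factors and their regulators 3 of 6 were tested. Hsf1, the main activator of inducible heat shock genes, was at -0.75 log2 (39.6 to 50.9 TPM early, 24.2 to 32.3 late), its inhibitor Hsbp1 at -1.66 and Hsf2 at 0.23. The call of Hsf2 was lost without the second WT early library, which carries the conflicting tag (0.20, adjusted p = 0.0807 by limma), either WT late library (adjusted p = 0.0714 and 0.0569), the second cKO early library (0.0832) or the second cKO late library (0.0686).

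Other folding machines were read beside the same shares of all genes, 34.3% higher and 34.6% lower. All 8 genes of the CCT chaperonin, the ring that folds actin and tubulin, were higher in late polysomes, with Cct3 at 1.32, Cct7 at 1.19 and Cct5 at 0.98 log2. All 6 prefoldin genes, whose products hand clients to CCT, were lower, with Pfdn2 at -1.69, Pfdn4 at -1.59 and Pfdn1 at -1.49. The median coding length was 1632 nucleotides for the CCT genes with a length and 432 for prefoldin, against 1926 for the 9 heat shock members. Mitochondrial chaperones were mixed at 4 higher and 3 lower of 8, with Hspa9 at 0.97, Grpel1 at -1.20 and Hspe1 at -1.49. Endoplasmic reticulum chaperones were 8 higher and 2 lower of 12, with Pdia6 at 1.20, Calr at 1.14 and Sdf2l1 at -1.18.

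Ubb, a polyubiquitin gene that stress also raises, rose by 1.71 log2 (49.7 to 71.1 TPM early, 205 to 238 late). Among 16 immediate early genes, whose messages can rise while tissue is handled, 9 were higher and 4 lower in late polysomes (34.3% and 34.6% of all genes). The largest changes were those of Arc at 0.99, Jun at 0.89 and Junb at 0.81. The 4 lower genes were Btg2 at -0.55, Egr3 at -0.53, Jund at -0.51 and Atf3 at -0.44. In each of these lists 0 genes passed the test in early polysomes, late polysomes, lysate means or the genotype difference in the late minus early change.

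**Figure D5:**
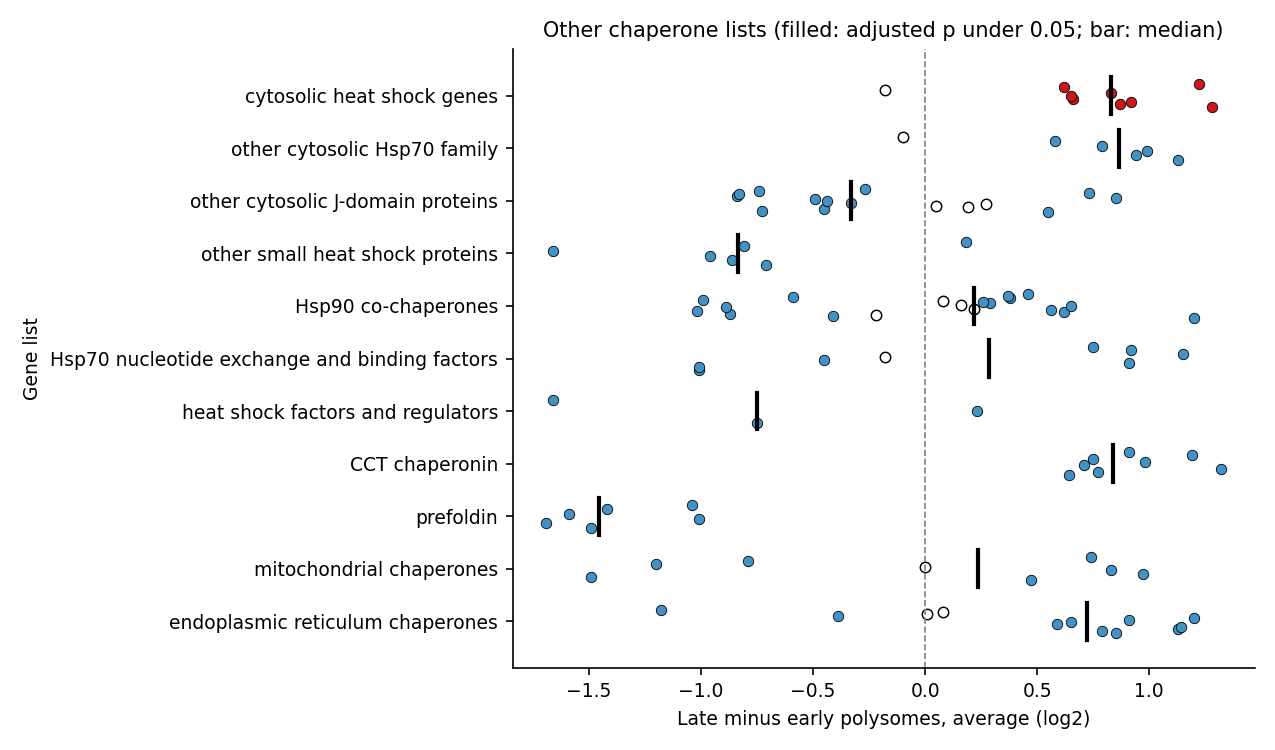
Average late minus early change (log2) of the members and of 10 other chaperone lists, 1 point per gene, filled where the adjusted p was under 0.05, with the list median as a bar. CCT genes lie entirely to the right and prefoldin genes entirely to the left of 0; Hspb1 (1.22) lies apart from the other small heat shock genes (-1.66 to 0.18).

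Cell type markers moved along the gradient too. All 5 sustentacular cell markers were higher in late polysomes (median 1.33 log2), as were 34.3% of all genes. Their summed TPM was 2476 to 4275 in early and 10075 to 10783 in late libraries. Of 7 mature olfactory sensory neuron markers 5 were higher and 2 lower (34.3% and 34.6% of all genes). The lower ones were Omp (-0.83 log2) and Stoml3 (-0.76 log2), which had the highest mean levels of the 7 (3618 and 2694 TPM). The summed TPM of the 7 was 8431 to 10451 in early and 6567 to 7974 in late libraries. No marker in the table was at 0 in all libraries, and 0 markers passed in any genotype comparison. The part of the cell types that supply each message in the members' position was not tested.

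By Pearson's r over the 8 libraries, the genes most like the members' mean profile, of 12809 ranked, included Dhx40, Pdia4, Tfip11 and Pias4 (r = 0.998 each). Those most like Hspa1a were Plekhm2 (0.981), Tbc1d25 (0.980), Snrpb (0.980), Bicd2 (0.977) and Col23a1 (0.976). Late and early libraries form 2 clusters on which these values mostly rest, and libraries share lysates, so they are a description only.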

How the data were processed

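The authors deposited 1 table of TPM (transcripts per 1000000) that covers 21765 gene symbols in 8 libraries, each column summing to 1000000. Per the submitters' processing notes, FastQC, cutadapt, STAR, DESeq2 and mm10 were used; versions, the counting method and the annotation are not given in the sources used here. Libraries were made with a stranded low-input total RNA kit, per the labels' protocols.

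TPM was scaled by median ratios (factors 0.94 to 1.07). Tests used limma 3.58.1 (R 4.3.3; empirical Bayes, with a trend of variance on mean) on log2(scaled TPM + 1) of genes with a mean of at least 1 TPM. The 4 groups were fitted together; tests were two-sided, adjusted by the Benjamini-Hochberg method over 16097 genes, with a threshold of 0.05. TPM states no depth. Its values were whole multiples of a step per gene, which gave whole reads for 19783 of 19783 genes above 0 in at least 2 libraries (100%, tolerance 0.001). These served a voom test.

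The members and lists were chosen with earlier results of these data known. All members are named. Beside the lower immediate early genes and neuron markers, from each other list up to 3 genes past the threshold with the largest late minus early change are named. In the same way the 5 genes with a mean of at least 5 TPM most like the members' mean, and the 5 most like Hspa1a, were taken by Pearson's r. Some genes that these rules name are not reported here.

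Early and late libraries of a lysate are paired by their library names. Across genes, the correlation of their deviations from the group means was 0.0863 for WT and 0.0502 for cKO lysates. Alternatives were pseudocounts of 0.1 and 0.5, no filter or a mean of 5 TPM, no scaling, quantile normalization, no trend, summed Hspa1 copies, voom, left-out libraries, blocks, and fits of only the 4 libraries compared. Coding lengths came from GENCODE M21, with windows of 5%, 10% and 20%; the 5% and 20% windows were added after seeing the data. The scripts were tested on simulated data.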

Additional observations from a re-analysis of the deposited data

How the results depend on the processing

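Over all alternatives run, the members passing late minus early were 7 to 9 on average, 6 to 7 in WT and 6 to 8 in cKO, and 0 in each genotype comparison. The lower end includes fits that test fewer rows, with a minimum of 5 TPM or with Hspa1a and Hspa1b summed. When each library was left out the counts were 8 to 9, 6 to 7 and 7 to 8, and the members' median was 0.70 to 0.95 log2. TPM as deposited moved the median of all genes by about the size of the scale factors, from -0.01 to 0.09 on average, and the members' median from 0.83 to 0.94. The lysate replicate block left 8, 7 and 7 members passing and changed no call of a member. The block on the replicate number, which no label ties to a shared batch, left 0 passing in the genotype comparisons; the correlation between WT and cKO libraries of a number was 0.332 for early and 0.143 for late polysomes. Counts over all genes in the genotype comparisons were small and moved: 7 in early polysomes became 0 to 12, 2 in late became 0 to 15, 1 for the difference of the changes became 0 to 7, and 1 on lysate means became 0 to 85, highest with the block on the replicate number. Values near 0 changed sign: Dnajb1 between genotypes went to -0.05 in early polysomes with TPM as deposited and to 0.01 on lysate means with voom, and Hspb1 on lysate means to -0.0019 with voom. With each library left out, differences that passed in no fit crossed 0: cKO minus WT in early polysomes ranged over -0.44 to 0.14 (Hsp90aa1), -0.28 to 0.08 (Hsp90ab1), -0.28 to 0.12 (Hspa8), -0.27 to 0.01 (Hspa1b), -0.40 to 0.10 (Hsph1), -0.05 to 0.06 (Dnajb1) and -0.12 to 0.10 (Hspb1). In late polysomes it ranged over -0.23 to 0.11 (Hspa8), -0.11 to 0.07 (Dnajb1) and -0.03 to 0.29 (Hspb1). The genotype difference in the late minus early change ranged over -0.25 to 0.33 (Hsp90aa1), -0.13 to 0.22 (Hsp90ab1), -0.18 to 0.22 (Hspa8), -0.32 to 0.18 (Hsph1), -0.11 to 0.06 (Dnajb1), -0.16 to 0.11 (Dnaja1), -0.02 to 0.29 (Hspb1) and -0.50 to 0.02 (Mex3a). On lysate means, cKO minus WT ranged over -0.30 to 0.04 (Hsp90aa1), -0.19 to 0.04 (Hsp90ab1), -0.18 to 0.05 (Hspa8), -0.16 to 0.01 (Hspa1a) and -0.06 to 0.04 (Dnajb1). The cause was not tested. With 2 libraries per group and 6 to 57 inferred reads behind Hspa1a and Hspa1b, depth limits those 2 rows most.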
